A study of Mus musculus with 2 samples.

Results

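Genes that make, break down, carry and sense retinoic acid were examined in the embryonic mouse brain with and without functional Plzf. The list held 9 genes, namely Aldh1a1, Aldh1a2 and Aldh1a3 for synthesis, Cyp26a1 and Cyp26b1 for breakdown, Crabp1 and Crabp2 for binding in the cytoplasm, and Rara and Rarb for nuclear reception. Members were taken by gene name, and 8 of the 9 were measured by 15 probes and 24 spots on each array, among 37074 gene names in all. Crabp2 was not analysed here. Crabp1 was higher in Plzf lu/lu brain on both arrays, with log2 ratios of 0.58 and 0.52 at the probe with its highest signal. Aldh1a1, Aldh1a3 and Cyp26b1 had ratios of opposite sign on the arrays, with differences between the arrays that few genes exceeded.

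Total RNA came from the brain of embryos at E10.5, which the methods specify as forebrain and midbrain. Each of 2 arrays compared 1 wild type sample, labelled C57BL/6 and dyed with Cy3, with 1 luxoid (lu/lu) sample, dyed with Cy5. Luxoid is a spontaneous mutation, in which a base change in the first coding exon leaves a truncated Plzf protein. Its background strain is not named in the labels. The labels call the pairs biological replicates and do not give the number of embryos in each. Because Cy5 held Plzf lu/lu RNA on both arrays, the effect of genotype and that of the dye cannot be told apart. In whole tissue, fewer cells of a type and less RNA per cell cannot be told apart either. The gene Zbtb16, which encodes Plzf, had a signal of 433 in wild type and 172 in Plzf lu/lu on array 1, and of 546 and 211 on array 2, which gives log2 ratios of -1.33 and -1.37. Its Plzf lu/lu signal on array 1 was under the signal filter described below, so it was not tested. All 6 forebrain markers and 6 of 7 midbrain and isthmus markers were well above background in every channel, En1 being the exception, and the hindbrain markers Hoxa2 and Hoxb1 were well above background in no channel.

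Retinoic acid is made from retinol in a pair of steps, the oxidation of retinol to retinal by enzymes such as Rdh10 and the oxidation of retinal by the Aldh1a enzymes. The Cyp26 enzymes degrade it, and the Crabp proteins bind it in the cytoplasm. In the nucleus it binds the receptors encoded by the Rar genes, which act on DNA as dimers with Rxr proteins. In the early head, Aldh1a1 and Aldh1a3 are known for their expression in the developing retina, Aldh1a1 also in the ventral midbrain, and Aldh1a2 mainly in mesenchyme outside the neural tube.

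Rar and Rxr dimers are known to bind a direct repeat of a hexamer with 5 bases in between, and promoters of the members were searched for it because Cyp26a1 and Rarb are textbook genes induced by retinoic acid. The hexamer searched was AGGTCA, with G also allowed in the first position and T in the third, in any combination of the 4 forms, in the same direction and on both strands, over 250 bases before to 50 bases after each start site of RefSeq in build GRCm38.p6. Of the 9 members listed, Crabp2 included, 7 had a promoter in that table, and the repeat was found in 2 of them, Cyp26a1 and Rarb. It was found in 32 of all 32851 promoters, or 0.0974%. With spacers of 2 bases and of 1 base, which retinoid receptors can also bind, it was found in 0.268% and 0.222% of promoters and in no member. The 250 bases before the start are shown for Cyp26a1 at chr19:37697558-37697807 on the plus strand, with the repeat 32 to 16 bases before the start, and for Rarb at chr14:16575477-16575726 on the minus strand, with the repeat 53 to 37 bases before it. Capitals mark the hexamers, which read in reverse complement for Cyp26a1.
Cyp26a1 promoter: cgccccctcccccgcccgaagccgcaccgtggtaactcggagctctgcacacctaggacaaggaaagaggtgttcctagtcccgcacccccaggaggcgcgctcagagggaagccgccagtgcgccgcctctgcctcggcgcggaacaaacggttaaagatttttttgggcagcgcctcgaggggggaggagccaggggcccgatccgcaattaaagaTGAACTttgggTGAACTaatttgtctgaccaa
Rarb promoter: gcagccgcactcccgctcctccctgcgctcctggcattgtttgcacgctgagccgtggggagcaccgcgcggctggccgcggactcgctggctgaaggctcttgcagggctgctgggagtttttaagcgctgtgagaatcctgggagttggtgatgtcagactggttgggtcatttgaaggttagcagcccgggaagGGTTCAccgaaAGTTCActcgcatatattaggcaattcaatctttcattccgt
A match of letters is a description of these windows and not a measured binding site.

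A pair of array probes, of 60 bases each, is shown next, because Crabp1 gave unequal ratios at its probes and because Cyp26a1 was read by this probe alone. The Crabp1 probe shown is the dimmer one, at chr9:54616192-54616251, and the Cyp26a1 probe lies at chr19:37775566-37775625, both on the plus strand of mm9. Each can be read through its whole length in at least 1 frame without a stop codon.
Crabp1 probe: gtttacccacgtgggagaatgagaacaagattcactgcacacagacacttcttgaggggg
Cyp26a1 probe: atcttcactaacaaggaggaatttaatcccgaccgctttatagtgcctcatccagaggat

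Signals below are the processed signals of the scanner software, after subtraction of background and normalization of the dyes within each array, and a ratio is that of Plzf lu/lu over wild type. The probe with the highest mean signal stood for a gene. A gene was tested when its signal was above 200 and its signal-to-noise ratio at least 5 in every channel, which 10600 genes passed. Of the 8 members measured, 4 passed, namely Aldh1a3, Crabp1, Rara and Rarb, while Aldh1a1, Aldh1a2, Cyp26a1 and Cyp26b1 did not. All 8 were called well above background by the software in every channel, as were 23283 genes in all. Signals of different probes are not comparable in level, so members are compared within a probe. Sums over a list of markers are given between channels only, and the brightest probes weigh most in them.

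**Figure D1:**
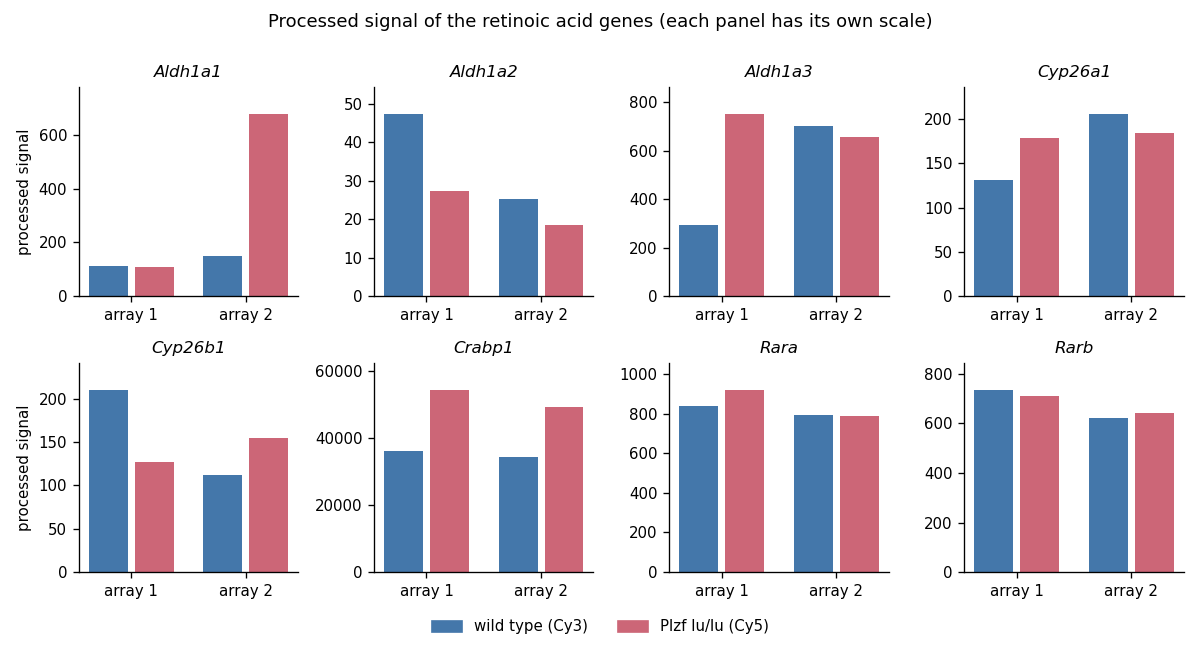
Processed signal (linear scale, y axis from 0, a separate scale in each panel) of the 8 retinoic acid genes at the probe with the highest signal, with 1 bar per channel: wild type in blue and Plzf lu/lu in red. Crabp1 shows the same step up in Plzf lu/lu on both arrays, Aldh1a1 stands out in the Plzf lu/lu channel of array 2 at 680, and Aldh1a3 is low in the wild type channel of array 1 at 291.

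Among the enzymes of synthesis, no direction was shared by the arrays except for Aldh1a2. Aldh1a1, a retinal dehydrogenase, was read by 1 spot per array at chr19:20717764-20717823. Its signal was 113 in wild type and 107 in Plzf lu/lu on array 1, and 151 in wild type and 680 in Plzf lu/lu on array 2. The Plzf lu/lu sample of array 2 was thus far above the other 3 samples, which lay close together. The log2 ratios were -0.08 and 2.17, and the difference of 2.26 between the arrays was exceeded by 12 of the 23283 genes well above background. Between the arrays, and relative to the median gene, the wild type signal rose by 0.44 and the Plzf lu/lu signal by 2.72 on the log2 scale. Markers of ventral midbrain and floor plate, where Aldh1a1 is known to be expressed, summed to 2563 in wild type and 3327 in Plzf lu/lu on array 1 and to 2621 and 4195 on array 2. Of these 8 markers, all well above background, Foxa1 had log2 ratios of 0.13 and 0.91, Corin of 0.15 and 0.72, and Foxa2 of 0.72 and 1.22, each higher on array 2. Lmx1a, Nr4a2 and Th also had the higher ratio on array 2, at -0.35 and 0.30, -0.43 and -0.03, and 0.45 and 0.49. Shh was nearly equal on the arrays at 1.06 and 1.03, and Lmx1b was lower on array 2 at -0.03 and -0.19. The part of these cells in the Aldh1a1 signal was not tested.

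Aldh1a2, the main retinal dehydrogenase of the early embryo, had signals of 47.4 in wild type and 27.2 in Plzf lu/lu on array 1 and of 25.2 and 18.5 on array 2, at chr9:71143931-71143990. Plzf lu/lu was the lower sample on each array, although the Plzf lu/lu sample of array 1 was above the wild type sample of array 2, so the groups overlapped. The log2 ratios were -0.80 and -0.44 (mean -0.62 ± 0.25 SD, n = 2 arrays), with an error of 0.25 in the software's model on each array. The gene was beyond 1.3-fold lower on both arrays, but its signal was outside the filter and it was not tested in the main fit. When all genes well above background were fitted, its adjusted p was 0.252 by limma. Of the 12 cranial mesenchyme and neural crest markers, 11 were well above background. The list summed to 15727 in wild type and 17111 in Plzf lu/lu on array 1, and to 15092 and 14468 on array 2. Msx1 weighed most in these sums. Log2 ratios were below 0 on both arrays for Sox10 (-0.39 and -0.65), Pdgfra (-0.15 and -0.33) and Col1a1 (-0.19 and -0.23). So were those of Foxc1 (-0.21 and -0.35), Foxc2 (-0.55 and -0.04) and Foxd3, the last not well above background. Alx1 (0.74 and 0.75), Tfap2a (0.92 and 0.24) and Twist1 (0.07 and 0.02) were above 0 on both. Prrx1, Prrx2 and Msx1 differed in sign. The part of these cells in the Aldh1a2 signal was not tested.

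Aldh1a3, the retinal dehydrogenase of the ventral retina and of surface ectoderm, was read by 3 probes. At the main probe, chr7:73535785-73535844 on the minus strand, the signal was 291 in wild type and 751 in Plzf lu/lu on array 1, and 700 and 654 on array 2. Here the wild type sample of array 1 was the low one, and the other 3 samples lay between 654 and 751. The log2 ratios were 1.37 and -0.10 (mean 0.64 ± 1.04 SD, n = 2 arrays), with an adjusted p of 0.252 by limma. The difference of 1.47 between the arrays was exceeded by 4 of the 10600 genes tested. The probe at chr7:73553907-73553966 gave signals of 29.7 and 46.9 on array 1 and of 73.1 and 50.3 on array 2, with log2 ratios of 0.66 and -0.54. The third probe, at chr7:73544841-73544900, was well above background in 1 of 4 channels, with log2 ratios of 0.68 and -0.23. At all 3 probes the ratio was above 0 on array 1 and below 0 on array 2.

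Some markers of the eye field and of epithelium were also low in the wild type channel of array 1. Rax, a homeobox gene of the eye field, had signals of 242 and 589 on array 1 and of 436 and 391 on array 2, and Six6, another eye field gene, had 48.8 and 232 on array 1 and 215 and 196 on array 2. Rax and Six6 were thus also lowest in wild type on array 1, with log2 ratios of 1.28 and 2.25 there and of -0.16 and -0.13 on array 2. Of the other 7 eye field genes well above background, Lhx2 and Tbx5 went the opposite way, with log2 ratios of -0.18 and 0.86 and of -0.62 and 0.28. Six3 (0.62 and 0.47), Vax1 (0.56 and 0.31), Vax2 (0.43 and 0.41) and Mitf (0.31 and 0.20) were above 0 on both arrays, and Pax2 was at -0.10 and -0.01. The whole list of 10 summed to 3649 in wild type and 4335 in Plzf lu/lu on array 1 and to 3252 and 4559 on array 2, and 9 of them were well above background in every channel. Of the 8 surface ectoderm markers, Krt8, Krt18, Epcam and Cdh1 had log2 ratios between 0.46 and 1.11 on array 1 and between -0.67 and -0.18 on array 2. The other 4 had a higher ratio on array 2 than on array 1, at 0.03 and 0.16 for Trp63, 0.63 and 0.79 for Grhl3, 0.20 and 0.29 for Krt5, and -0.01 and 0.53 for Krt14. All 8 surface ectoderm markers were well above background, and they summed to 8687 in wild type and 12905 in Plzf lu/lu on array 1 and to 12108 and 9633 on array 2. The part of eye or surface ectoderm tissue in the Aldh1a3 signal was not tested.

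**Figure D2:**
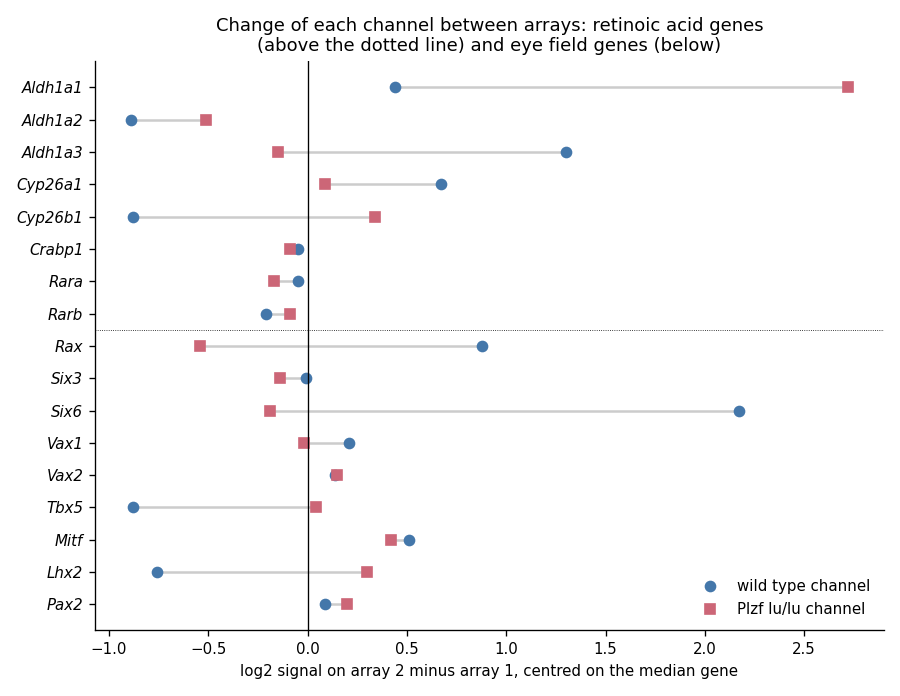
Change of the log2 signal from array 1 to array 2 in the wild type channel (blue circles) and in the Plzf lu/lu channel (red squares), centred on the median gene, for the 8 retinoic acid genes and for the 9 eye field genes well above background. Aldh1a3, Rax and Six6 rose in the wild type channel, Rax by 0.88 and Six6 by 2.17, whereas Aldh1a1 moved in the Plzf lu/lu channel, by 2.72.

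The enzymes of breakdown had no common direction either. Cyp26a1, which is induced by retinoic acid and oxidizes it, had signals of 131 in wild type and 179 in Plzf lu/lu on array 1, and of 206 and 184 on array 2, at the probe shown above. The wild type samples were both the lowest and the highest of the 4, so that the groups overlapped fully. The log2 ratios were 0.44 and -0.16 (mean 0.14 ± 0.43 SD, n = 2 arrays). Cyp26b1, a related enzyme, had signals of 210 and 127 on array 1 and of 112 and 155 on array 2, at chr6:84521952-84522011 on the minus strand. Wild type again held the lowest and the highest value. The log2 ratios were -0.73 and 0.47, which is beyond 1.3-fold on each array and in opposite directions. The difference of 1.20 was exceeded by 185 of the 23283 genes well above background. Between the arrays the wild type signal of Cyp26b1 changed by -0.88 and the Plzf lu/lu signal by 0.34 on the log2 scale, relative to the median gene.

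Crabp1, which encodes a cytoplasmic protein that binds retinoic acid, was the member with the smallest difference between the arrays at its main probe, 0.06 on the log2 scale. At the main probe, chr9:54620842-54620901 on the plus strand, the signal was 36265 in wild type and 54332 in Plzf lu/lu on array 1, and 34354 and 49310 on array 2. Both Plzf lu/lu samples were above both wild type samples. The log2 ratios were 0.58 and 0.52 (mean 0.55 ± 0.04 SD, n = 2 arrays). This probe was printed in 10 spots on each array, of which 1 on array 1 was left out as an outlier. Over the 9 spots of array 1 the log2 ratio ranged from 0.52 to 0.62, and over the 10 spots of array 2 from 0.47 to 0.59. In each spot used, the signal of Plzf lu/lu was above that of wild type. The SD over its spots was 0.0302 on array 1 and 0.0410 on array 2, and the median over all probes with at least 8 spots was 0.0358 and 0.0366.

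In the limma fit, Crabp1 had an unadjusted p of 0.000439 and an adjusted p of 0.0510, above the threshold of 0.05. The same adjusted p was given to Nr2f2, described below, at an unadjusted p of 0.000615 by limma. When all genes well above background were fitted, the adjusted p of Crabp1 was 0.252 by limma, as for Aldh1a2. At the other Crabp1 probe, whose sequence is given above, the signal was 7404 in wild type and 7540 in Plzf lu/lu on array 1, and 6022 and 7218 on array 2. The Plzf lu/lu sample of array 2 was below the wild type sample of array 1, so the groups overlapped there. Its log2 ratios of 0.03 and 0.26 were both within 1.3-fold. The probes are annotated to different RefSeq transcripts of the gene and lie in different places. They measured unequal changes, and averaging them left Crabp1 within 1.3-fold on at least 1 array. Both probes lie on chromosome 9 as Zbtb16 does, 6.16 and 6.15 Mb away from it, and Aldh1a2 lies 22.7 Mb from it.

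Neurons and neural crest are classes of cells known to express Crabp1. The 7 neuronal markers, all well above background, summed to 6079 in wild type and 6139 in Plzf lu/lu on array 1 and to 5356 and 8575 on array 2. The sums of mesenchyme and neural crest markers, given above, lay within the range from 14468 to 17111. The neuronal sum was thus nearly equal in both channels of array 1 and higher in Plzf lu/lu on array 2. Tubb3 (0.33 and 0.79), Isl1 (0.66 and 0.37) and Nefl (0.07 and 1.06) had log2 ratios above 0 on both arrays. Stmn2 (-0.04 and 0.60), Dcx (-0.48 and 0.95), Elavl3 (-0.14 and 0.52) and Nefm (-0.48 and 0.60) were above 0 on array 2 alone. The mesenchyme and crest sum was higher in Plzf lu/lu on array 1 and lower on array 2, with single markers going both ways. The part of cell composition in the Crabp1 ratio was not tested.

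Among the receptors, Rara, which encodes the widely expressed receptor alpha, had signals of 838 in wild type and 919 in Plzf lu/lu on array 1, and of 795 and 787 on array 2, at chr11:98836197-98836256. The 2 groups overlapped, and the log2 ratios were 0.13 and -0.01 (mean 0.06 ± 0.10 SD, n = 2 arrays), with an adjusted p of 0.656 by limma. Its other probe, at chr11:98835350-98835409, gave 258 and 331 on array 1 and 251 and 289 on array 2, with log2 ratios of 0.36 and 0.20. There both Plzf lu/lu samples were above both wild type samples, but neither ratio was beyond 1.3-fold.

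Rarb, the receptor that is itself induced by retinoic acid, was read by 4 probes, all on the minus strand. At the main probe, chr14:17263511-17263570, the signal was 734 in wild type and 708 in Plzf lu/lu on array 1, and 622 and 643 on array 2. The samples of 1 array were closer to each other than to samples of the same genotype, with log2 ratios of -0.05 and 0.05 and an adjusted p of 0.990 by limma. A probe at chr14:17263889-17263947 gave 186 and 151 on array 1 and 151 and 129 on array 2, with log2 ratios of -0.30 and -0.23. The probe at chr14:17651424-17651483 gave 33.5 and 23.6 on array 1 and 20.0 and 24.1 on array 2, with log2 ratios of -0.51 and 0.27. The last probe, at chr14:17380078-17380137, was well above background in no channel, and no ratio is given for it. No Rarb probe well above background was beyond 1.3-fold higher, or lower, on each of the arrays.

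**Figure D3:**
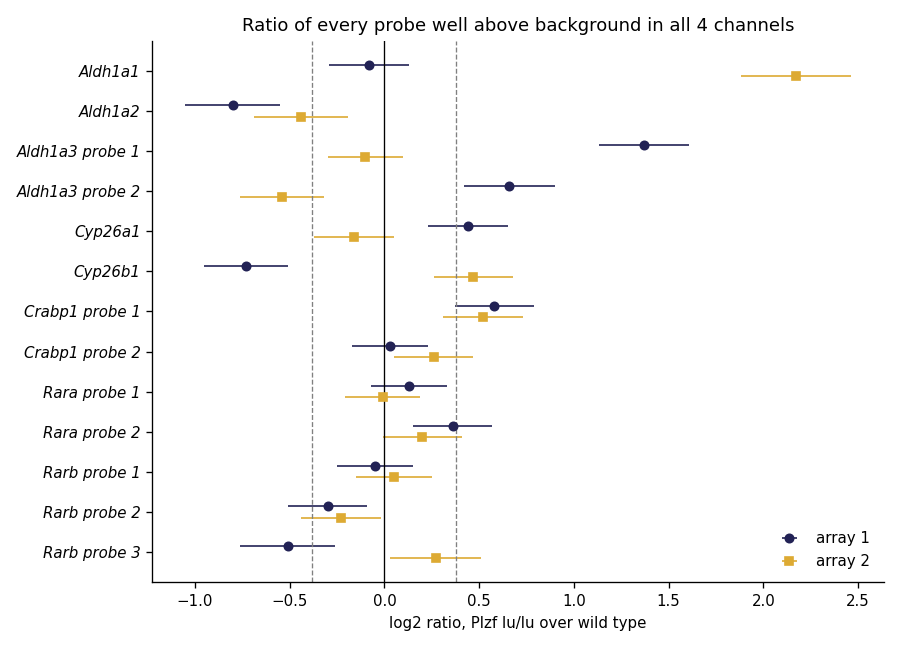
Log2 ratio of Plzf lu/lu over wild type (x axis) on array 1 (dark circles) and array 2 (yellow squares) for the 13 member probes well above background in all 4 channels, numbered within a gene from the brightest. Bars are the error given by the scanner software, and dashed lines mark 1.3-fold. The main Crabp1 probe lies beyond the upper line on both arrays, at 0.58 and 0.52, and Aldh1a2 beyond the lower line on both.

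Counted together, 1 of the 4 members tested was beyond 1.3-fold higher on both arrays (Crabp1), beside 2.58% of all genes tested. None was lower, beside 0.736%, and none was beyond 1.3-fold in opposite directions, beside 0.198%. Among the 8 members well above background, 1 was higher (Crabp1), beside 2.52% of such genes, 1 was lower (Aldh1a2), beside 2.07%, and 1 went in opposite directions (Cyp26b1), beside 0.893%. The counts are too small for a share to be read from them. At an adjusted p under 0.05 in limma, no member was called, beside 0.0283% of genes higher and 0% lower. At an unadjusted p under 0.05, 1 member tested was higher, beside 15.7% of genes, and none was lower, beside 12.0%. In the fit of all genes well above background those shares were 8.88% and 8.11%, and no gene passed the adjusted p. The median log2 ratio over the 4 members tested was 0.31, beside 0.01 over all genes tested, and over the 8 members well above background it was 0.10, beside 0.00. With 2 arrays, an exact two-sided sign flip test of a single gene cannot go below p = 0.5, so limma's test rests on the spread pooled across genes.

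The sign of the ratio differed between arrays for 6 of 8 members, with the exceptions of Aldh1a2 and Crabp1, beside 33.3% of the genes well above background and 27.4% of those tested. For Rara and Rarb both ratios were near 0, where a sign carries little. The absolute difference between the arrays had a median of 0.16 and a 99th percentile of 1.12 on the log2 scale over genes well above background, and Aldh1a1, Aldh1a3 and Cyp26b1 exceeded that percentile. The other 5 members had differences between 0.06 and 0.61. The members were chosen with earlier results of these data known and include genes on which the arrays disagree. The comparison with all genes is thus a description and not a test.

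**Figure D4:**
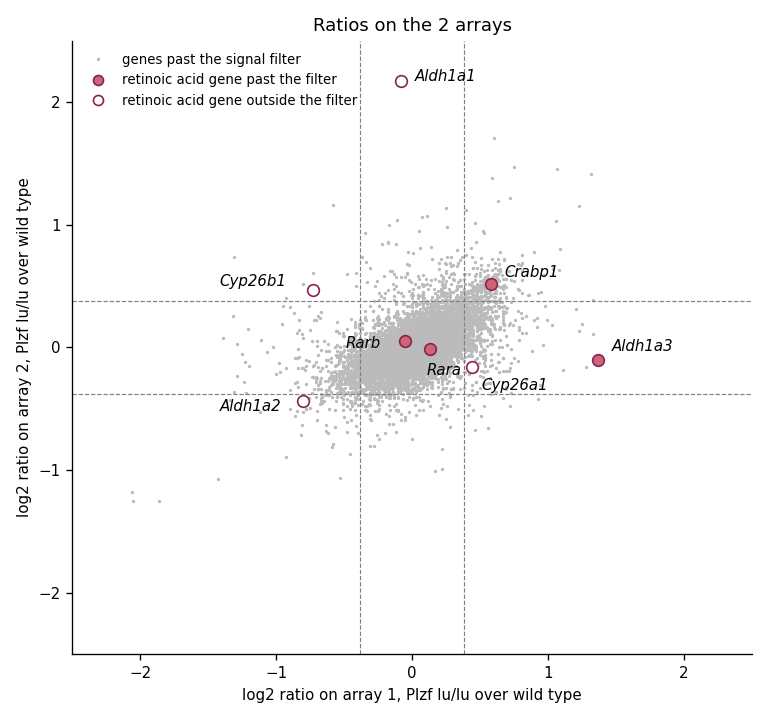
Log2 ratio of Plzf lu/lu over wild type on array 1 (x axis) against array 2 (y axis) for the 10600 genes tested (grey, 1 gene outside the axes) and for the 8 members, filled where they passed the signal filter. Dashed lines mark 1.3-fold. Crabp1 lies in the upper right corner with both ratios beyond the line, and Aldh1a1, Aldh1a3 and Cyp26b1 lie away from the cloud of genes.

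The wider retinoid pathway was described by 52 further genes in 6 lists, of which 39 were well above background and 27 were tested. Of the 27, 1 was beyond 1.3-fold higher on both arrays, beside 2.58% of all genes tested, and none was lower, beside 0.736%. None passed an adjusted p of 0.05 in limma. At an unadjusted p under 0.05, 8 were higher, beside 15.7% of all genes tested, and 1 was lower, beside 12.0%. Their median log2 ratio was 0.11, beside 0.01 over all genes tested. The gene called was Nr2f2, which encodes the orphan receptor COUP-TFII and is known to respond to retinoic acid. Its signals were 662 in wild type and 924 in Plzf lu/lu on array 1 and 692 and 1089 on array 2. Both Plzf lu/lu samples were above both wild type samples, with log2 ratios of 0.48 and 0.65 and an adjusted p of 0.0510 by limma.

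Neither of the genes named for the supply of retinal was beyond 1.3-fold on either array. Rdh10, which oxidizes retinol to retinal, had 264 and 300 on array 1 and 269 and 291 on array 2, with log2 ratios of 0.19 and 0.11 and an adjusted p of 0.259 by limma. Dhrs3, which reduces retinal back to retinol, had 462 and 478 on array 1 and 315 and 401 on array 2, with log2 ratios of 0.05 and 0.35. None of the 12 oxidoreductases well above background was beyond 1.3-fold higher, or lower, on each array.

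Cyp26c1, the further member of the Cyp26 enzymes, had signals of 15.9 in wild type and 12.1 in Plzf lu/lu on array 1, and of 16.5 in wild type on array 2. Both Plzf lu/lu samples were below both wild type samples, at log2 ratios of -0.40 and -0.65. Cyp26c1 was the only one of the 39 related genes well above background that was beyond 1.3-fold lower on both arrays. Over all genes well above background, 2.07% were lower in this way. At these signals Cyp26c1 was outside the filter and not tested. The hindbrain marker Gbx2 was also lower in Plzf lu/lu, with log2 ratios of -2.25 and -1.96. Of 6 hindbrain markers, 2 were well above background in every channel, and the list summed to 181 in wild type and 91.0 in Plzf lu/lu on array 1 and to 156 and 84.1 on array 2. The part of hindbrain tissue in the low signal of Cyp26c1 was not tested.

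No further receptor was beyond 1.3-fold on both arrays. Rarg, the gamma receptor, had signals of 1159 and 1260 on array 1 and of 1069 and 990 on array 2. Rxra had 4172 and 4145 on array 1 and 3748 and 4058 on array 2, and Rxrb had 3568 and 3202 on array 1 and 3322 and 3173 on array 2. Rarg, Rxra and Rxrb, the last a partner of the Rar proteins as Rxra is, had log2 ratios between -0.16 and 0.12 on both arrays, with adjusted p of 0.976, 0.686 and 0.383 by limma. Rxrg, the remaining Rxr gene, was outside the filter, with signals of 123 and 103 on array 1 and of 106 and 75.9 on array 2 and log2 ratios of -0.25 and -0.48. None of the 6 coregulators was beyond 1.3-fold on both arrays, and their median log2 ratio was 0.14. Of 15 known targets of retinoic acid, 8 were tested, and among these 8 Nr2f2 alone was beyond 1.3-fold on both arrays. Over all genes tested, 2.58% were higher and 0.736% lower in this way.

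**Figure D5:**
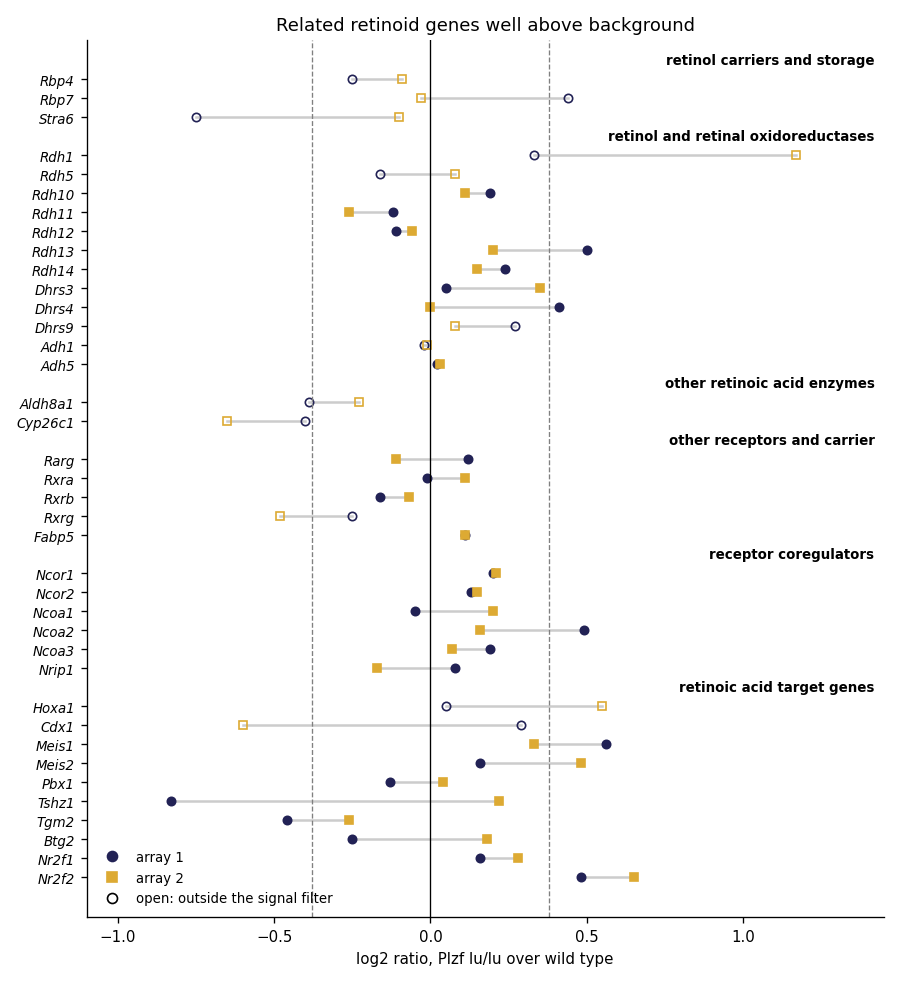
Log2 ratio of Plzf lu/lu over wild type (x axis) on array 1 (dark circles) and array 2 (yellow squares) for the related retinoid genes well above background that are reported here, grouped by list, with open symbols for genes outside the signal filter and dashed lines at 1.3-fold. Nr2f2 lies beyond the upper line on both arrays and Cyp26c1 beyond the lower one.

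The genes whose promoters held the repeat shown above were also read. Of these, 16 were on the array, 10 were well above background and 3 were tested, namely Rarb and, named after their values were seen, Blvrb and Hbb-y. None of the tested genes was beyond 1.3-fold higher, or lower, on each of the arrays, and the median log2 ratio of the 10 was -0.13. Blvrb had log2 ratios of -1.23 and -0.12. Hbb-y had -0.80 and 0.52, beyond 1.3-fold on each array in opposite directions. Blvrb and Hbb-y are known from red blood cells, whose 5 markers summed to 336171 in wild type and 177701 in Plzf lu/lu on array 1 and to 122647 and 159501 on array 2. Hbb-y is itself among these markers, with 146807 of the wild type sum on array 1.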

How the data were processed

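RNA of 2 wild type and 2 luxoid brain samples at E10.5 was measured on 2 Agilent arrays of 1 slide, Cy3 for wild type and Cy5 for lu/lu. The authors scanned them with Feature Extraction 10.7.3.1, which detrended the signal, subtracted background, set surrogates for dim spots and normalized the dyes by a rank-consistency LOWESS inside the array, with no step between arrays. The deposited columns used are processed and raw intensity and the log10 ratio, and a table of log2 ratios that the authors deposited, within 0.005 of the log10 ratio on the log2 scale, with a median of 0.00 on both arrays. The number of arrays limits the precision.

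Control spots and outlier spots (137 and 126) were left out, and spots of a probe were averaged on the log2 scale. Log2 ratios were fitted with limma 3.58.1 (R 4.3.3; lmFit with an intercept, eBayes) and adjusted by Benjamini-Hochberg over all 10600 genes tested; the procedure was tested on simulated data. The signal and signal-to-noise limits and the 1.3-fold threshold are those of the methods; requiring the limits in all 4 channels was a choice made here. Tables were handled in Python 3.11.15 (pandas 2.3.3, numpy 2.4.6) and R (data.table, version 1.17.8), and drawn with matplotlib 3.10.9. Shifts between arrays were centred on the median gene of each channel. Every member probe is named, as are the related genes beyond 1.3-fold on both arrays, Rarg, Rxra, Rxrb, Rxrg, Cyp26c1, Rdh10, Dhrs3, Zbtb16, and markers beside a result. Another gene that the rule names is not reported here. The members and lists were chosen with earlier results of these data known. Alternatives covered background correction, normalization, filters, probe choice, base composition, threshold, pairing and single arrays. Probe positions are in mm9; promoters are from RefSeq. Whether probes lie in coding exons or UTRs was not analysed here.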

Additional observations from a re-analysis of the deposited data

How the results depend on the processing

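Of the results counted, those that changed are given here, and the cause was not tested unless named. Members higher beyond 1.3-fold on both arrays went from 1 to 0 at 1.5-fold and with probes averaged, the latter since Crabp1 averaged over its probes was within 1.3-fold on array 1. Members lower, and members in opposite directions, went from 0 to 1 each with well above background as the filter and with no filter, Aldh1a2 and Cyp26b1. When normexp was followed by centring on the median of all spots, the median of all genes tested shifted by 0.55 on the log2 scale. With that shift, 6731 of all 10600 genes tested were beyond 1.3-fold higher on both arrays, and 4 were lower. Beside these, 3 of the 4 members tested and 21 of the 27 related genes tested were higher. At an adjusted p under 0.05 in limma, 4 members were higher, and the share of all genes is not given here. Relative to the shifted median of all genes tested, the mean log2 ratio was 0.90 for Crabp1, 0.54 for Aldh1a3, 0.04 for Rara and -0.03 for Rarb. Related genes higher went from 1 to 0 at 1.5-fold and with the GC trend removed, and to 2 with no filter. Related genes lower went from 0 to 1 with well above background as the filter and to 4 with no filter. Of all 37071 genes without a filter, 1695 were higher and 2173 lower beyond 1.3-fold on both arrays. The related genes were run under these settings by a choice made after seeing the data, as were the other probes of Crabp1 and Rara.

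On a single array, which gives no test, members higher ranged from 1 to 2, members lower stayed at 0, related genes higher ranged from 2 to 5 and related genes lower from 0 to 2. Crabp1 was the member higher on array 2 alone, and Aldh1a3 joined it on array 1 alone. The means near 0 of Rara and Rarb changed sign. Rara was -0.02 with the GC trend removed, and Rarb was 0.04 with normexp and loess, 0.53 with normexp and median centring, and 0.03 with the GC trend removed. Over the processing settings other than median centring, the mean log2 ratio of Crabp1 ranged from 0.35 to 0.58, and its adjusted p over all settings from 9.31e-22 to 0.525. Each array pairs its channels. Without that pairing, as 4 separate samples with no replicate block, 0 members were higher and 0 were lower at an adjusted p under 0.05, as in the paired fit. No member passed an adjusted p of 0.05 in the other settings run, median centring excepted. All members other than Crabp1 rest on 1 spot per probe and array, and the signals of Aldh1a2 were below the filter in every channel.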
